A study of Mus musculus with 12 samples.

Results

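Transcripts of 7 genes that move and store calcium in the sarcoplasmic reticulum of muscle were followed in the tibialis anterior, a fast-twitch leg muscle of the mouse. They were Atp2a1, Atp2a2 and Atp2a3, which encode the calcium pumps SERCA1, SERCA2 and SERCA3, Sln and Pln, which encode the pump inhibitors sarcolipin and phospholamban, and Casq1 and Casq2, which encode the fast and the cardiac and slow-twitch calsequestrin. They were chosen by gene symbol and make up 7 of the 23923 genes in the files. RNA was sequenced from 12 mice aged 6 weeks on a mixed C57BL6/J and 129S1/SvImJ background, with 1 library per mouse. The 6 controls had the genotype Myf6 cre/+ with Smyd1 flox/+, and the 6 Smyd1 conditional knockouts (CKOs) had Myf6 cre/+ with Smyd1 flox/-. Every control therefore also carried Cre and a floxed Smyd1 allele, beside a wild-type allele, and the study's crosses included a Rosa26 YFP reporter allele. In control myofibers Cre could act on the floxed allele too, leaving the wild-type allele. By the paper, only male tissues were used in the experiments that followed its comparison of the sexes. Cre was made from the Myf6 locus, which is active in differentiating myocytes and myofibers, so that Cre does not target other cells of the muscle. The null Smyd1 allele of CKOs was a germline allele. Cells outside the myofibers therefore also differed from those of controls by 1 Smyd1 allele. Smyd1 encodes a lysine methyltransferase of striated muscle.

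When a muscle relaxes, SERCA pumps return calcium from the cytosol to the sarcoplasmic reticulum, where calsequestrin holds it near the release channels until the next contraction. SERCA1 and CASQ1 are the main forms of fast fibers, and SERCA2 and CASQ2 are forms found in slow fibers and heart. Fast form and slow form are used below as names for these genes, and a form can also occur in other fibers or cells. Sarcolipin and phospholamban are small membrane proteins that bind the pump and lower its activity. In the adult mouse, sarcolipin is scarce in fast limb muscle and more abundant in slow muscle, in atrial muscle and in developing muscle. The comparison asks how this set of transcripts differed between muscle with and without SMYD1 in its myofibers.

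Values are FPKM, fragment counts corrected for transcript length and library size, so that levels of different genes can be set side by side. Fold changes are differences of log2(FPKM + 0.1), CKO minus control, from a limma fit over the 12695 genes that reached 0.1 FPKM in 6 or more mice, and adjusted P is over all of these. The whole table leaned upward, with a median log2 fold change of 0.18 over all genes tested, and median-ratio scaling of the libraries moved this to 0.01. The level of Smyd1 itself was 32.9 to 47.1 FPKM in controls and 27.8 to 39.9 FPKM in CKOs (log2 fold change -0.13, SE 0.12, adjusted P = 0.545), so the whole-gene value did not tell the groups apart and gave no check of the labels. The depth relative to control 1, taken from the spacing of the smallest FPKM values, was 0.984 to 1.77 (medians 1.19 in controls and 1.24 in CKOs, exact permutation test, two-sided, P = 0.524). As a check of the tissue, 11 fast-fiber transcripts summed to 22506 to 37714 FPKM over the libraries, against 44.7 to 462 FPKM for 10 slow-fiber transcripts. Control 1 stood apart from the other controls, with 372 FPKM summed over 3 fibroblast markers (Col1a1, Pdgfra and Dcn) against 109 to 149 FPKM, and the CKOs had 143 to 209 FPKM. Of these 3 markers, 1 was higher in CKOs at an unadjusted P below 0.05, against 18.1% of all genes tested. None of the 3 passed the adjusted threshold, and none of 4 smooth muscle genes passed either. CKO 1, CKO 3 and CKO 6 stood apart from the other CKOs in slow-fiber genes. In whole muscle, fewer fibers of a type and less RNA in each fiber cannot be told apart.

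In controls the order of the levels was Atp2a1, Casq1, Casq2, Atp2a2, Pln, Sln and Atp2a3. The 2 fast forms made up almost the whole of their families. Atp2a1 was at 1310 ± 162 FPKM (SD, n = 6) and Casq1 at 830 ± 111 FPKM (SD, n = 6), and their ranges did not overlap. The other 5 genes were far lower, with Casq2 at 13.2 ± 4.36 FPKM, Atp2a2 at 5.32 ± 0.914 FPKM, Pln at 3.34 ± 1.33 FPKM, Sln at 1.47 ± 2.09 FPKM and Atp2a3 at 0.533 ± 0.0660 FPKM (SD, n = 6 each). The ranges of Casq2 and Atp2a2 did not overlap, whereas Atp2a2 overlapped Pln, Pln overlapped Sln and Sln overlapped Atp2a3. In CKOs Sln had a mean of 25.7 ± 24.7 FPKM (SD, n = 6), above that of Casq2, but its median of 16.03 FPKM lay below the 21.5 FPKM of Casq2, and its range of 1.81 to 59.9 FPKM spanned those of Casq2 and Atp2a2.

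**Figure D1:**
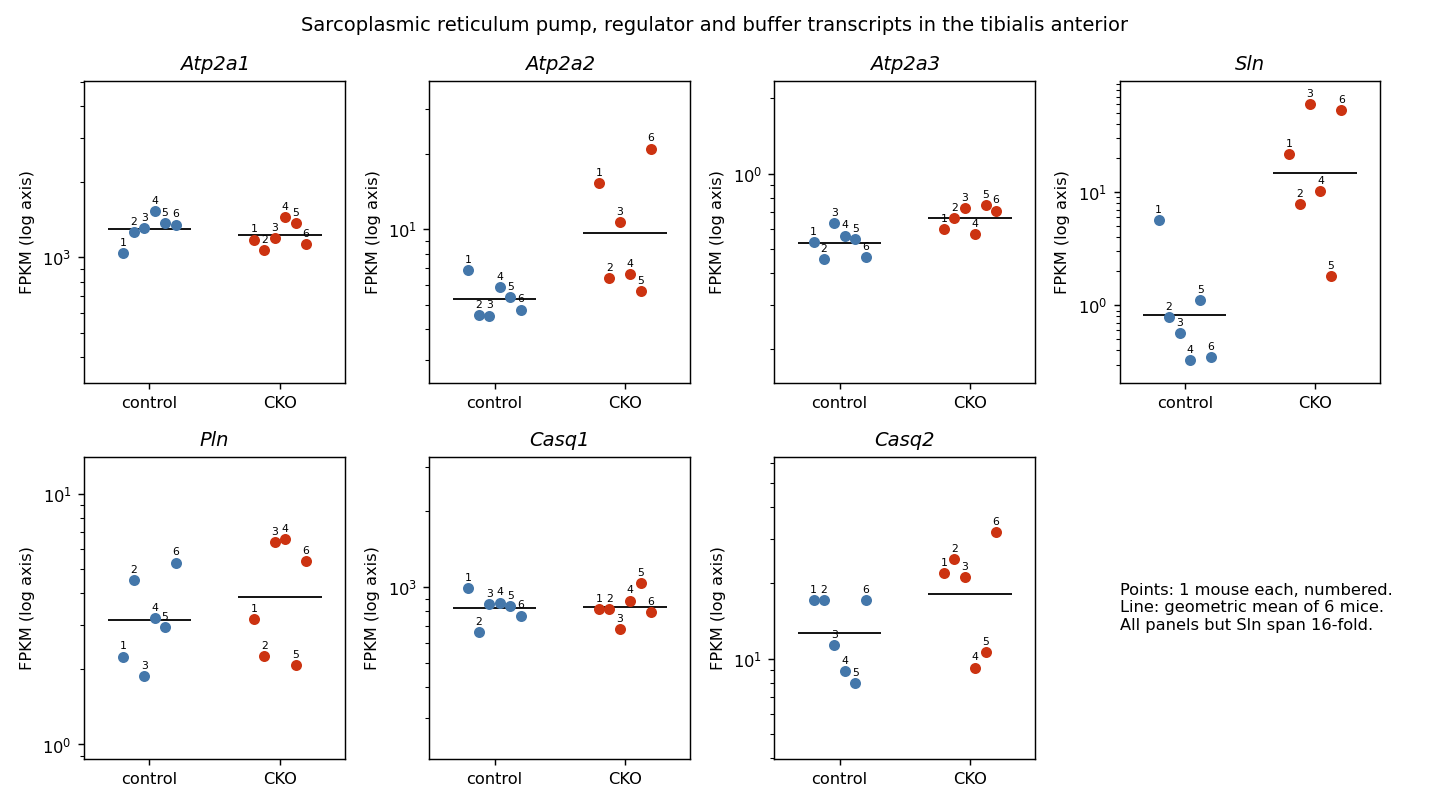
FPKM of the 7 genes in each mouse on log axes, with controls in blue, CKOs in red, the mouse number beside each point and a line at the geometric mean of the 6 mice. Sln ranged from 0.328 to 5.69 FPKM in controls and from 1.81 to 59.9 FPKM in CKOs, Atp2a2 was highest in CKO 6 at 21.0 FPKM, and for Atp2a1 and for Casq1 the control and CKO points overlapped over most of their range.

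Of the 7 genes, Sln alone was called higher at an adjusted P below 0.05, against 2.02% of all genes tested, and none was called lower, against 0.268% of all genes tested. At an unadjusted P below 0.05, Sln and Atp2a2 were higher, 2 of 7 against 18.1% of all genes tested, and none was lower, against 1.76%. In none of the 7 did the CKO values lie wholly above the control values, which held for 2.23% of all genes tested, or wholly below them, which held for 0.189%. Atp2a1, Casq1 and Pln did not differ detectably. For the first 2 the 95% interval of the fold change lay between 0.774 and 1.23 with FPKM as deposited. After median-ratio scaling the 95% interval of the log2 fold change reached down to -0.60 for Atp2a1 and to -0.43 for Casq1.

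The main pump transcript of fast fibers, Atp2a1, was 1038, 1258, 1308, 1531, 1373 and 1351 FPKM in controls 1 to 6 and 1176, 1067, 1195, 1451, 1367 and 1133 FPKM in CKOs 1 to 6. The groups overlapped over most of their range, and the lowest value belonged to control 1. The log2 fold change was -0.09 (SE 0.13, 95% interval -0.37 to 0.19, adjusted P = 0.733). After median-ratio scaling it was -0.28 (95% interval -0.60 to 0.05, adjusted P = 0.453). The summed FPKM of the 3 pump genes was 1046 to 1538 in controls and 1074 to 1459 in CKOs.

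Atp2a2, a pump gene of slow fibers and heart, was 6.85, 4.56, 4.52, 5.88, 5.35 and 4.78 FPKM in controls 1 to 6 and 15.3, 6.38, 10.7, 6.62, 5.65 and 21.0 FPKM in CKOs 1 to 6. Values are per gene in whole muscle, so forms of SERCA2 were not told apart. Which cells held the Atp2a2 transcript was not measured. CKO 1, CKO 3 and CKO 6 exceeded every control, and the other CKOs lay within the control range. The SD on the log2 scale was 0.23 in controls and 0.76 in CKOs. The fold was 1.82 (95% interval 1.22 to 2.74, log2 fold change 0.87, SE 0.28), and it did not pass the adjusted threshold in limma (adjusted P = 0.109, and 0.236 after median-ratio scaling, where the log2 fold change was 0.68). With mice weighted by their agreement with the rest of their group, the log2 fold change was 1.03 and passed (adjusted P = 0.0221). Without CKO 1, CKO 3 and CKO 6, left out after their values were seen, it was 0.23 (adjusted P = 0.694).

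Atp2a3, the pump gene known mainly from blood and endothelial cells, was the lowest of the 7. It ranged from 0.456 to 0.633 FPKM in controls (median 0.540) and from 0.573 to 0.749 FPKM in CKOs (median 0.687). The ranges overlapped narrowly, and the log2 fold change of 0.29 (SE 0.14, adjusted P = 0.282) was near the median of all genes and was 0.12 after median-ratio scaling. Summed endothelial markers were 26.9 to 40.8 FPKM in controls and 27.0 to 45.2 FPKM in CKOs, and summed blood markers were 1.49 to 6.36 and 0.756 to 3.99 FPKM. None of the 5 endothelial and none of the 2 blood genes tested passed an unadjusted P of 0.05.

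Sln showed the one call among the 7 genes. It was 5.69, 0.793, 0.564, 0.328, 1.12 and 0.347 FPKM in controls 1 to 6 and 21.8, 7.89, 59.9, 10.2, 1.81 and 52.8 FPKM in CKOs 1 to 6. Every CKO except CKO 5 exceeded every control, and CKO 5 exceeded every control except control 1. The fold was 15.5 (95% interval 4.90 to 48.9, adjusted P = 0.0173), and after median-ratio scaling the log2 fold change was 3.78 (adjusted P = 0.0236).

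The low control values of Sln rest on few fragments. In each library the Sln value was a whole multiple, within 0.1, of the value of 1 fragment, which gave 32, 5, 4, 2, 8 and 3 fragments in controls 1 to 6, or 54 in all. CKOs 1 to 6 had 217, 48, 438, 89, 10 and 350 fragments, or 1152 in all. The 2 fragments of control 4 have a 95% Poisson interval of 0.242 to 7.22, and the 10 of CKO 5 one of 4.80 to 18.4, for counting error only. The interval of control 1, 21.9 to 45.2, lay above that of every other control, so the difference between control 1 and the other controls was larger than counting error.

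The spread of Sln between mice was wide in both groups, with an SD on the log2 scale of 1.39 in controls and 1.87 in CKOs. Leaving out each mouse in turn gave log2 fold changes of 3.55 to 4.54. Without CKO 1 the log2 fold change was 3.84 and just missed the threshold (adjusted P = 0.0501), and without control 1 it was 4.47 (adjusted P = 0.00283). Without CKO 1, CKO 3 and CKO 6 together it was 2.49 and did not pass (adjusted P = 0.386), a fit in which 4 genes of the whole table passed higher.

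Pln, the inhibitor of SERCA2 in heart and slow fibers, was 2.24, 4.52, 1.87, 3.19, 2.94 and 5.31 FPKM in controls 1 to 6 and 3.16, 2.25, 6.41, 6.57, 2.08 and 5.36 FPKM in CKOs 1 to 6. High and low mice occurred in both groups. The log2 fold change was 0.30 (SE 0.32, 95% interval -0.38 to 0.97, adjusted P = 0.617). Its values rested on about 52 to 258 fragments per library, so that counting error was smaller than the difference between mice.

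**Figure D2:**
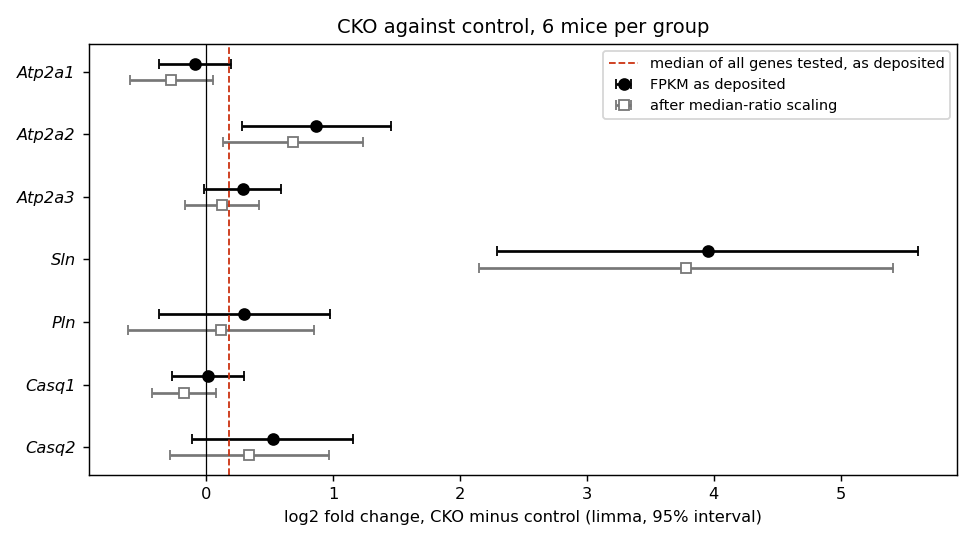
Log2 fold change (CKO minus control) of the 7 genes from limma with 95% intervals, for FPKM as deposited (filled circles) and after median-ratio scaling (open squares), with a dashed line at the median of all genes tested, 0.18. The interval of Sln, 2.29 to 5.61 as deposited, lay far from 0 and from the median. That of Atp2a2 lay above 0 in both versions and was 0.13 to 1.23 after scaling. The dashed line holds for FPKM as deposited only, and after scaling the median of all genes tested was 0.01. The other 5 intervals included 0.

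The calsequestrin genes were the other pair with a fast and a slow form. Casq1, the main form of fast fibers, was 993, 660, 854, 867, 838 and 769 FPKM in controls 1 to 6 and 815, 818, 679, 884, 1035 and 795 FPKM in CKOs 1 to 6. The groups overlapped, with a log2 fold change of 0.01 (SE 0.13, 95% interval -0.27 to 0.30, adjusted P = 0.970) that became -0.17 after median-ratio scaling (adjusted P = 0.558).

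Casq2, the form of heart and slow fibers, was 17.1, 17.0, 11.3, 8.89, 7.96 and 17.1 FPKM in controls 1 to 6 and 21.9, 24.9, 21.1, 9.21, 10.6 and 31.9 FPKM in CKOs 1 to 6. CKOs 1, 2, 3 and 6 exceeded every control, and CKOs 4 and 5 lay among the low controls. The log2 fold change was 0.52 (SE 0.30, 95% interval -0.11 to 1.16, adjusted P = 0.338). Casq2 was already the more abundant slow form in controls, at about 1.61% of all calsequestrin FPKM, whereas Atp2a2 made up 0.414% of pump FPKM.

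Of the 7 genes, 5 had an upstream window of 250 bases in the RefSeq table for GRCm38.p6, and those of Casq1 and Casq2 are shown because these genes form the slow and fast pair for which both windows were at hand. The Casq1 window is chr1:172219896-172220145 on the minus strand and the Casq2 window is chr3:102086165-102086414 on the plus strand, each ending just before the annotated start of the gene and written 5′ to 3′. Capitals mark matches to the motifs searched on both strands.
Casq1: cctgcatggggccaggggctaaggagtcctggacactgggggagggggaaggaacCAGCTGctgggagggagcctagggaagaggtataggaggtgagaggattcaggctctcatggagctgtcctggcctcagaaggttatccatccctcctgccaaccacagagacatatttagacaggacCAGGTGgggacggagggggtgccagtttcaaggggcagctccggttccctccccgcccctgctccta
Casq2: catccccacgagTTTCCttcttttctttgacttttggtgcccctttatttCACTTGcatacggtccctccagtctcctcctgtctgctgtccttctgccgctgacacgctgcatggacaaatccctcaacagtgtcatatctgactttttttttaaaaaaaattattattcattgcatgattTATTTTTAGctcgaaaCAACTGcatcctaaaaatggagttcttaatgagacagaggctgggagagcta
The first motif was the E-box, written CANNTG, which myogenic factors are known to bind. The letters searched for MEF2, a further muscle factor, were CTAAAAATA. The MCAT element bound by TEAD factors was searched as CATTCC. For the calcium-dependent factor NFAT the core searched was TTTCC. The letters taken for the basal promoter element called the TATA box were TATAAA. Matches to different motifs did not overlap in these windows. Both windows held 2 E-boxes, at -195 and -67 in Casq1 and at -200 and -52 in Casq2, counted back from the start. E-box letters stood in 66.2% of the 32851 promoter windows of this length in the table. The Casq2 window also held the MEF2 letters at -68, as TATTTTTAG on the strand shown, which stood in 0.469% of all windows, and the NFAT letters at -238, which stood in 55.6%. The Atp2a1 window held 1 E-box, and the Atp2a3 window none of the motifs. The Pln window held 1 E-box, 2 NFAT matches and 1 match to the TATA box letters, which stood in 12.4% of all windows. That match lay at -219, far from the start. The MCAT letters, found in 12.6% of all windows, were in none of the 5. A match is a description of the letters, and binding was not measured.

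Ratios within a mouse do not move with the scaling of its library, and 5 were compared by exact permutation tests over every way to assign 6 and 6 mice, two-sided, with adjustment over the 5. The smallest P these tests can give is 0.00216. Of these ratios, 3 passed: Atp2a2 to Atp2a1, Sln to Atp2a1 and Sln to Pln.

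The ratio of the slow to the fast pump, as the FPKM of Atp2a2 in percent of that of Atp2a1, was 0.660, 0.363, 0.346, 0.384, 0.389 and 0.353% in controls 1 to 6 and 1.30, 0.598, 0.893, 0.456, 0.413 and 1.85% in CKOs 1 to 6. All CKOs exceeded the controls other than control 1, and CKO 1, CKO 3 and CKO 6 exceeded control 1 too. On the log2 scale the ratio was -7.92 ± 0.35 in controls and -6.97 ± 0.86 in CKOs (SD, n = 6 each), a difference of 0.95, or 1.94-fold (exact permutation P = 0.0238, adjusted P = 0.0397). The call did not stand up to leaving out single mice. It passed without control 1, CKO 4 or CKO 5, and in the other 9 of 12 fits, which left out control 2, 3, 4, 5 or 6 or CKO 1, 2, 3 or 6, the difference was 0.71 to 1.03 and the adjusted P of the exact permutation test was 0.0505 to 0.0866. Without CKO 1, CKO 3 and CKO 6 together the difference was 0.25 (exact permutation P = 0.298, adjusted P = 0.496). Even in CKO 6, Atp2a1 made up 98.1% of the pump FPKM.

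The ratio of Casq2 to Casq1 was 1.72, 2.58, 1.33, 1.02, 0.9497 and 2.23% in controls 1 to 6 and 2.69, 3.05, 3.10, 1.04, 1.03 and 4.01% in CKOs 1 to 6. CKOs 1, 2, 3 and 6 exceeded every control. The difference on the log2 scale was 0.51 (exact permutation P = 0.245, adjusted P = 0.245), smaller than the SD within either group, which was 0.59 in controls and 0.85 in CKOs. Without CKO 1, CKO 3 and CKO 6 it was -0.05 (exact permutation P = 0.929).

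Sarcolipin transcript was higher in CKOs relative to Atp2a1, the main pump transcript. Which fibers held the Sln transcript was not measured. Sln was 0.0214 to 0.548% of Atp2a1 in controls (median 0.0531%) and 0.132 to 5.02% in CKOs (median 1.30%), with 5 CKOs above every control. The log2 difference was 4.04 (exact permutation P = 0.00433, adjusted P = 0.0162) and was 2.51 without CKO 1, CKO 3 and CKO 6 (exact permutation P = 0.0476, adjusted P = 0.179).

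The balance of the 2 inhibitors also differed. Sln was 254% of Pln in control 1 and 6.53 to 38.1% in the other controls, and it was 87.0 to 984% in CKOs, so that Sln exceeded Pln in 1 of 6 controls and in 5 of 6 CKOs. This order rests on the length correction of FPKM, as in control 1 Sln had 32 fragments and Pln 57. The log2 difference was 3.65 (exact permutation P = 0.00649, adjusted P = 0.0162), and 2.48 without CKO 1, CKO 3 and CKO 6 (exact permutation P = 0.0714, adjusted P = 0.179). Pln against Atp2a2 went from a median of 54.6% in controls to 36.1% in CKOs, with a log2 difference of -0.57 that did not pass (exact permutation P = 0.214, adjusted P = 0.245).

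**Figure D3:**
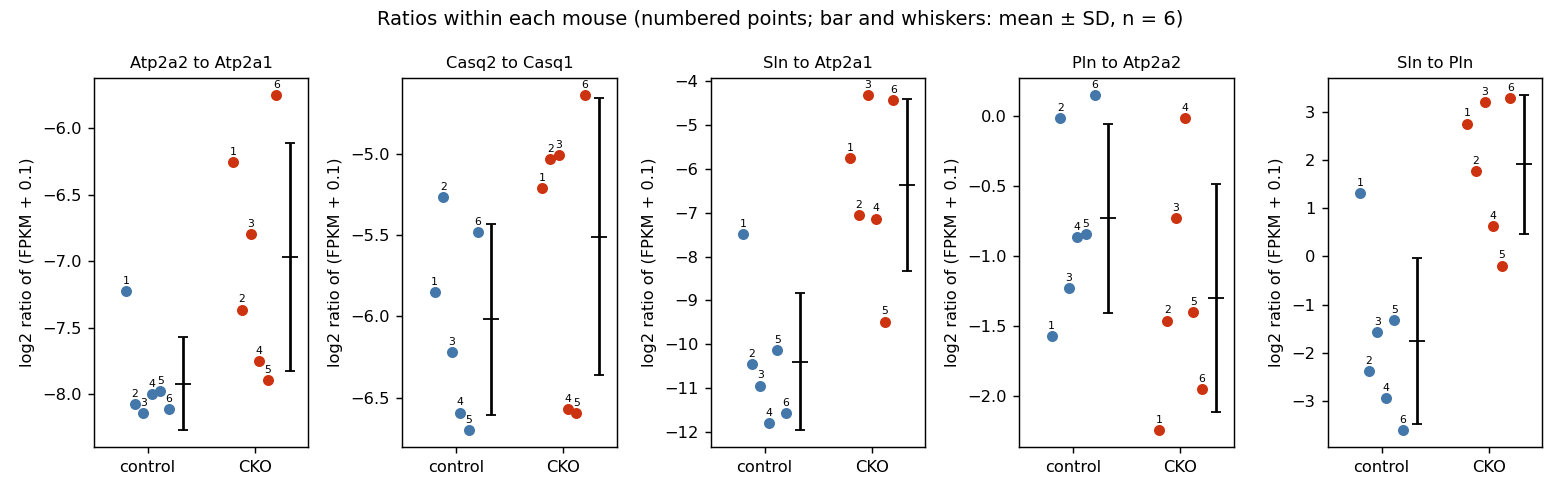
The 5 log2 ratios within each mouse, with controls in blue, CKOs in red, the mouse number beside each point, and bars and whiskers for the mean ± SD of 6 mice. In the Atp2a2 to Atp2a1 panel 5 controls lay close together with control 1 above them at -7.22, and CKO 6 was highest at -5.75.

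Whether the slow forms went together mouse by mouse was examined within each group, so that the difference between groups did not enter. In CKOs, the log2 ratio of Atp2a2 to Atp2a1 followed the log2 ratio of Myh7 to Myh4, the slow and the fastest myosin heavy chain (Pearson r = 0.949, exact permutation P = 0.00833; Spearman rho = 0.943, exact permutation P = 0.0167; n = 6). Without the 2 mice farthest from the median of the myosin ratio, r was 0.864. Over the 8 relations tested the adjusted P was 0.0667 for Pearson and 0.133 for Spearman, so the relation did not pass. The same relation in controls had r = 0.471 (exact permutation P = 0.403, adjusted P = 0.537).

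The pump and calsequestrin ratios of CKOs had r = 0.827 (exact permutation P = 0.0597, adjusted P = 0.119; rho = 0.829), and those of controls had r = 0.0245 (exact permutation P = 0.968; rho = -0.314). Log2 Sln followed the pump ratio in CKOs with r = 0.810 (exact permutation P = 0.05, adjusted P = 0.119; rho = 0.771), which was 0.9004 without the 2 farthest mice. In controls it had r = 0.918 (exact permutation P = 0.0458, adjusted P = 0.119; rho = 0.600), which fell to 0.394 without control 1 and control 3 and so rested on those mice. The calsequestrin and myosin ratios had r = 0.662 in CKOs (exact permutation P = 0.192) and -0.00302 in controls (exact permutation P = 0.996). None of the 8 relations passed an adjusted P of 0.05, and the difference between the groups in r was not tested.

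**Figure D4:**
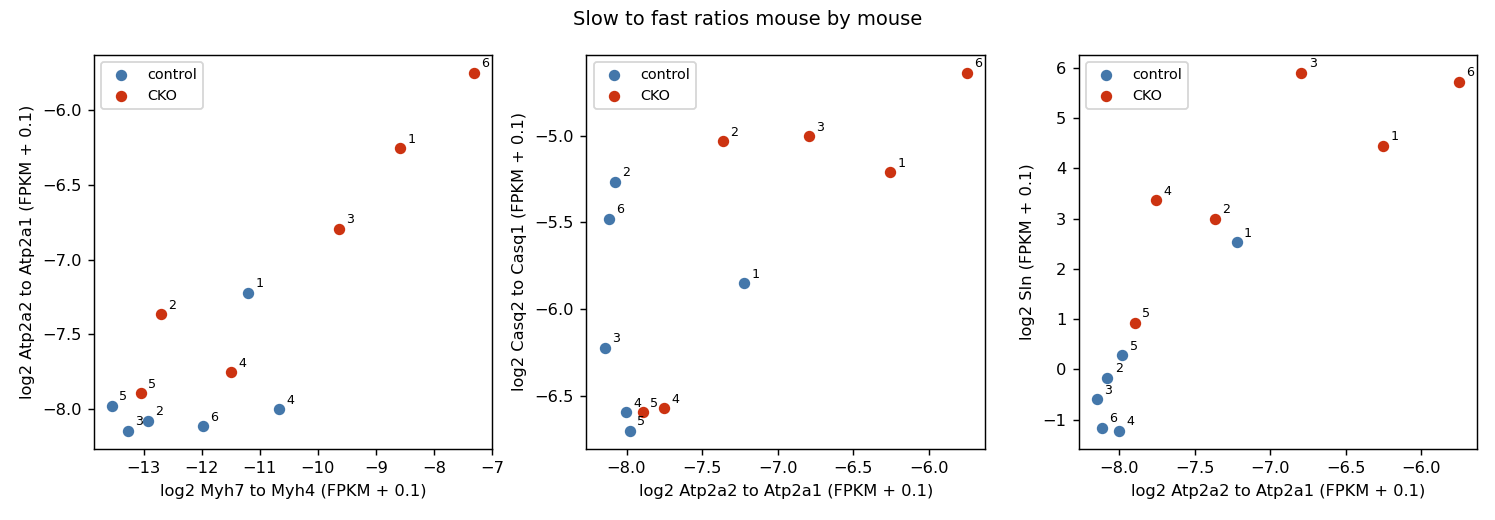
Log2 ratios of (FPKM + 0.1) in each mouse: the pump ratio Atp2a2 to Atp2a1 against Myh7 to Myh4 (left), the calsequestrin ratio against the pump ratio (middle) and log2 Sln against the pump ratio (right), with controls in blue and CKOs in red and the mouse number beside each point. CKO 1, CKO 3 and CKO 6 lay at the upper right in all 3 panels, and CKO 5 lay near the controls.

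Of 10 slow-fiber genes, 7 had their 3 highest CKO values in CKO 1, CKO 3 and CKO 6, and the exceptions were Myh7b, Myl3 and Tpm3. At an unadjusted P below 0.05, 8 of the 10 were higher in CKOs, against 18.1% of all genes tested, and none was lower, against 1.76%. The slow-fiber gene Myh7b, which encodes a slow myosin heavy chain, passed the adjusted threshold (log2 fold change 0.94, adjusted P = 0.0470), a call it lost after median-ratio scaling (adjusted P = 0.113). The median of the list was 1.37 against 0.18 over all genes, and Myl3, a slow myosin light chain gene, went the other way without passing (-0.52, adjusted P = 0.330). After Myh7b the smallest P belonged to Myoz2, which encodes calsarcin-1 (0.90, adjusted P = 0.0952) and Tpm3, the slow tropomyosin gene (1.18, adjusted P = 0.119). Myh7 was 16.5, 7.81 and 37.5 FPKM in CKO 1, CKO 3 and CKO 6, against 0.419 to 2.51 FPKM in the other CKOs and 0.204 to 2.25 FPKM in controls. Without these 3 CKOs, 1 slow-fiber gene was higher and 1 lower at an unadjusted P below 0.05, against 889 and 165 of all 12695 genes tested. The list median was then 0.43. These mice were left out for their high slow-fiber genes, so a fall of the median was built into the choice. The part of slow-fiber genes and of fibroblast RNA in the difference of Atp2a2, Sln and Casq2 was not tested.

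Of 11 fast-fiber genes, 3 were higher at an unadjusted P below 0.05, against 18.1% of all genes tested, and none was lower, against 1.76%, with a list median of -0.20. The 3 were the myosin heavy chain genes Myh1 (log2 fold change 1.05, adjusted P = 0.00733) and Myh4 (0.77, adjusted P = 0.0599) and the myosin-binding protein gene Mybpc2 (0.52, adjusted P = 0.0623). After median-ratio scaling 3 were higher and 5 lower, against 6.66% and 7.41% of all genes tested. Myh4 was 2482 to 3837 FPKM in controls and 3586 to 7498 FPKM in CKOs, and these ranges overlapped narrowly.

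Several of the 7 genes are also strongly expressed in the heart, and heart markers were near 0. Nppb and Myl7 were listed at 0 in every library, and Nppa was listed at 0 in all but CKO 6, where it was 0.0946 FPKM. The 6 heart markers summed to 0.288 to 0.779 FPKM in controls and 0.234 to 3.22 FPKM in CKOs. Most of this in CKO 1, CKO 3 and CKO 6 was Myh6, at 2.37, 1.63 and 2.93 FPKM. Neither of the 2 heart markers tested passed an unadjusted P of 0.05.

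The other calcium-handling genes of the triad and sarcoplasmic reticulum were read from a list of 27, of which 24 were tested. At an unadjusted P below 0.05, 8 were higher and 2 lower, against 18.1% and 1.76% of all genes tested, and 2 passed the adjusted threshold, both higher, against 2.02%. Without CKO 1, CKO 3 and CKO 6, 3 were higher and 1 lower, against 889 and 165 of all 12695 genes tested. The list median was 0.11, below the 0.18 of all genes, and after median-ratio scaling it was -0.08, with 2 higher and 4 lower at an unadjusted P below 0.05, against 6.66% and 7.41% of all genes tested, and none past the adjusted threshold.

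The 2 genes that passed encode subunits of the voltage sensor in the t-tubule. Cacnb1, its beta subunit, was at 18.8 ± 1.33 FPKM in controls and 26.3 ± 3.69 FPKM in CKOs (SD, n = 6 each; log2 fold change 0.47, adjusted P = 0.0323). Cacng1, its gamma subunit, was at 30.5 ± 3.01 and 43.9 ± 8.75 FPKM (SD, n = 6 each; log2 fold change 0.51, adjusted P = 0.0433). After median-ratio scaling their adjusted P were 0.211 and 0.144. Stim1, the calcium sensor of store-operated entry, came next (0.39, adjusted P = 0.0595). Ryr1, the release channel, was at 106 ± 26.6 FPKM in controls and 120 ± 23.4 FPKM in CKOs (SD, n = 6 each; log2 fold change 0.20, adjusted P = 0.557).

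Myoregulin, a further peptide inhibitor of SERCA, had a fold change of the opposite sign to that of Sln, which did not pass the adjusted threshold. Its gene, listed in the files as 2310015B20Rik and named here after its values were seen, was at 17.3 ± 3.85 FPKM in controls and 12.4 ± 5.37 FPKM in CKOs (SD, n = 6 each). The log2 fold change was -0.58 (SE 0.27, adjusted P = 0.244) and -0.77 after median-ratio scaling (adjusted P = 0.174). In controls its mean level was thus above those of Pln and Sln, and in CKOs below that of Sln.

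**Figure D5:**
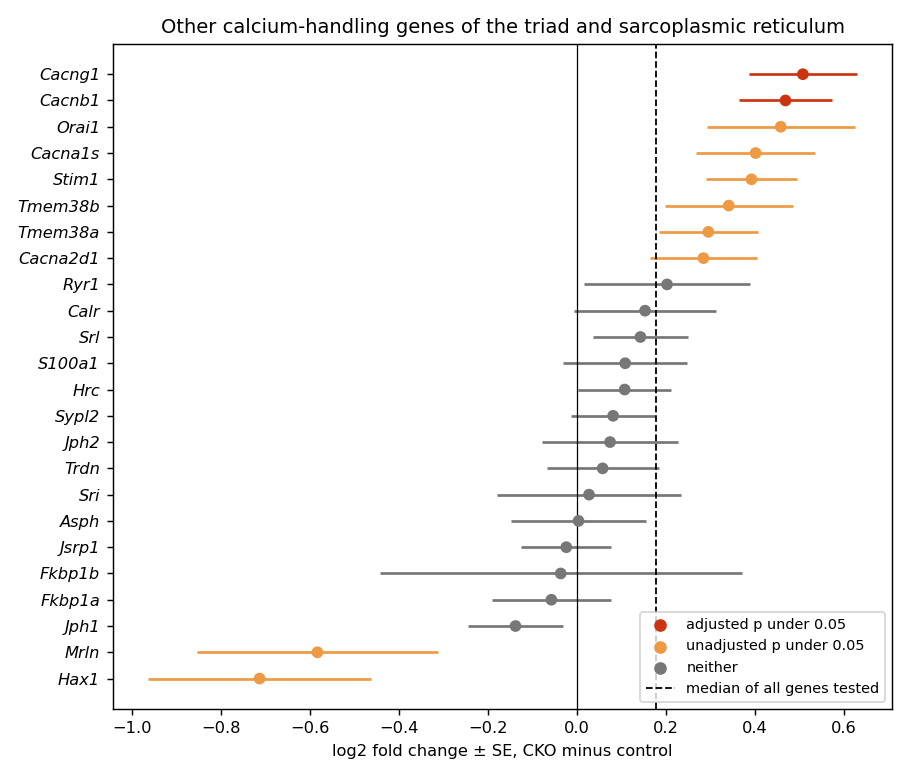
Log2 fold change (CKO minus control) ± SE from limma for the 24 tested genes of the calcium-handling list, with Mrln for the gene listed as 2310015B20Rik, coloured by whether the adjusted P, only the unadjusted P, or neither was under 0.05. Cacng1 and Cacnb1 lay highest at 0.51 and 0.47 and passed the adjusted threshold, and the dashed line marks the median of all genes tested, 0.18.

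The genes whose values followed a gene most closely over the 12 mice, after the mean of each group was taken away, were sought among 7968 genes with a mean of at least 1 FPKM. For Atp2a2 these were Myh3, the embryonic myosin heavy chain gene (r = 0.970), Tigd4 (0.948), Ppfibp1 (0.947), and the slow troponin genes Tnnt1 (0.940) and Tnnc1 (0.920). For Sln they were Itga9, an integrin gene (0.933), Smurf1, a ubiquitin ligase gene (0.929), Pcdhgc3 (0.925), Rps15 (0.924) and Fst, which encodes follistatin (0.921). For Casq2 they were Actn2, the alpha-actinin gene found in all fibers (0.938), Gnb2 (0.919), Lims1 (0.901), Hspb7 (0.894) and Flnc, which encodes filamin C (0.878). These are the highest of many correlations and are given as a description.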

How the data were processed

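RNA from the tibialis anterior of 12 mice was sequenced after removal of ribosomal RNA (ScriptSeq Complete Gold kit). The authors deposited FPKM made with Cufflinks 2.1.1 from TopHat2 2.0.10 alignments to build mm9, by the submitters' processing notes, and counted uniquely placed reads only. The annotation is not given in the sources used here. Leaving out reads with several placements can lower the values of close paralogs. Each file held 23950 rows, and 27 with a date for a symbol were left out.

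The deposited FPKM were used unscaled as log2(FPKM + 0.1) in limma 3.58.1 (R 4.3.3, with an intensity trend), for genes that reached 0.1 FPKM in 6 or more of the 12 mice, adjusted by the Benjamini-Hochberg method over 12695 genes. The DESeq test of the study needs counts and was not repeated. Ratios and relations were tested by exact permutation in scipy 1.17.1. P-values measure the spread between mice. The depth in reads is unknown, and relative depth was read from steps between FPKM below 0.15. Fragments of Sln and Pln were read from the largest common step of each gene's own values after correction for relative depth. For Pln, 11 of 12 values were whole multiples of this step within 0.1. Code was tested on simulated data.

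The text names the 7 genes, from each list the genes past the adjusted threshold and the 3 with the smallest P, Smyd1, Myh7 and Myh4, and the 5 genes most like Sln, Atp2a2 and Casq2. Other genes were named after their values were seen. The genes and lists were chosen with earlier results of these data known. Of 96 list genes, 95 were in the files. Alternatives were median-ratio scaling, quantile normalization, no filter or one at 1 FPKM, sample weights, no trend, a pseudocount of 1, a replicate block, no pseudocount and medians for ratios, and each mouse left out. Leaving out CKO 1, CKO 3 and CKO 6, chosen for their slow-fiber genes, was added after the data were seen.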

Additional observations from a re-analysis of the deposited data

Results flagged for a closer look

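The log2 ratio of Atp2a2 to Atp2a1 was -7.22 in control 1, which lay far from the other 5 controls (its gap to the nearest was 0.818 of the whole range of the group, past the 95% limit of Dixon's test). Control 1 also had the highest Sln among controls, at 5.69 FPKM, and the highest summed fibroblast markers, at 372 FPKM. Without it the difference in the ratio was 1.09 (exact permutation P = 0.0173, adjusted P = 0.0289). It was the only flag among 24 groups of values screened, and chance flags about 1 in 20 groups.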

How the results depend on the processing

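Over all genes, 257 were called higher and 34 lower by adjusted P (2300 and 224 by unadjusted P). These counts moved to 97 and 90 with median-ratio scaling (845 and 941 unadjusted), 101 and 68 with quantile normalization (810 and 837), 1400 and 115 with sample weights (3704 higher unadjusted), 170 higher with no filter, and 4 and 3 without CKO 1, CKO 3 and CKO 6 (889 higher unadjusted). Leaving out each mouse in turn gave 84 to 1067 higher and 18 to 69 lower, the most without control 1. For Sln the log2 fold change was 3.55 to 4.54 with a mouse left out, 3.03 with a pseudocount of 1, and 2.49 without the 3 CKOs. Atp2a2 passed with sample weights, at 1.03. Casq1 turned negative with median-ratio scaling (-0.17) and sample weights (-0.0030), and ran from -0.0513 to 0.0709 with a mouse left out. The values were -0.0513 without control 2, -0.00715 without control 6, -0.00498 without CKO 4 and -0.0506 without CKO 5. The ratio difference of Atp2a2 to Atp2a1 was 0.71 to 1.14 with a mouse left out and 0.25 without the 3 CKOs, where that of Casq2 to Casq1 turned to -0.0464, that of Sln to Pln was 2.48 and that of Sln to Atp2a1 was 2.51, none of them past the adjusted threshold. With medians in place of means the difference of Atp2a2 to Atp2a1 was 0.96 (exact permutation P = 0.0476, adjusted P = 0.0794). With the 3 CKOs left out, fewer mice were tested, so the exact tests could not give a P as small as with all mice. Missing the adjusted threshold there does not show that a ratio difference was absent. These CKOs had been chosen for their high slow-fiber genes. That choice also takes out the 3 highest CKO values of Atp2a2 and of Sln, so smaller differences were built in for these genes. For the other settings the cause was not tested.

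Deviations of mice with the same number had correlations of -0.0861 to 0.164, and 2 of 6 matched their own number best. These values gave no sign that the numbers pair the mice, but they cannot exclude it. With a replicate block, 272 genes passed higher and 40 lower, and the ratio of Casq2 to Casq1, with a difference of 0.51, passed a sign-flip test (exact P = 0.0313, adjusted P = 0.0391). That exact P is the smallest that 6 pairs can give. Low Sln values in controls are limited by 2 to 32 fragments per library.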

Other observations

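Genes of developing muscle were read from a list of 12, of which 10 were tested. At an unadjusted P below 0.05, 5 were higher in CKOs, against 18.1% of all genes tested, and none was lower, against 1.76%. The list median was 0.65. After median-ratio scaling 4 were higher and 1 lower, against 6.66% and 7.41% of all genes tested. Without CKO 1, CKO 3 and CKO 6 there were 2 higher, against 889 of all 12695 genes tested, with a list median of 0.08. Myh3, the embryonic myosin heavy chain gene, was 0.551 to 1.81 FPKM in controls and 16.3, 2.17, 11.97, 2.76, 1.30 and 25.7 FPKM in CKOs 1 to 6. It was highest in the CKOs that were highest in Atp2a2, and it passed the adjusted threshold (log2 fold change 2.67, adjusted P = 0.0358), which it missed after median-ratio scaling (adjusted P = 0.0525). Ncam1, a cell adhesion gene of developing and denervated fibers (0.94, adjusted P = 0.0623), and Myog, the myogenin gene (1.36, adjusted P = 0.0658), came next. The list did not rise as a whole, and 7 of the 10 lay above 0. Actc1, an actin gene, went the other way without passing (-0.54, adjusted P = 0.296, and -0.72 after median-ratio scaling). Its mean was 186 FPKM in controls and 139 FPKM in CKOs. Tmem8c was at -0.28 and H19 at -0.03, and neither passed.

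Ttn, the titin gene, was listed at 0 in 8 of 12 libraries although every fiber uses it, so a 0 in these files can be a failed estimate. None of the 7 genes was at 0 in any library.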
